A study of Mus musculus with 4 samples.

Results

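Expression in HT-22 cells was examined for PGC-1α effects that differed between cells with and without oxygen and glucose deprivation (OGD). Genes were selected by a difference of differences, that is, the PGC-1α effect with OGD (PGC-1α+OGD minus Ctrl+OGD) minus the PGC-1α effect without OGD (PGC-1α minus Ctrl). It was taken on log2(FPKM + 1), with the deposited transcripts of each gene symbol summed, so that folds of low genes are understated. Of 11502 gene symbols, 8218 averaged 5 FPKM or more across the 4 libraries, and in 1017 of these (12.4%) the difference of differences reached 1.5-fold, which is 0.585 on the log2 scale. It was higher in 506 genes (6.16%) and lower in 511 genes (6.22%). A higher value means that the PGC-1α effect was more positive with OGD, and a lower value that it was less positive or more negative.

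HT-22 is an immortalized cell line of mouse hippocampal origin. Ctrl was the line with negative control lentivirus and PGC-1α the line with overexpressing lentivirus, both kept in normal medium, and both kinds of cells had gone through lentivirus and selection with puromycin. The OGD groups, Ctrl+OGD and PGC-1α+OGD, were the same kinds of cells after 2 h without serum, glucose and oxygen, and a further 24 h in normal medium. With 1 library in each group, no difference has a replicate check, no p value or error can be given, and a library cannot be told apart from its condition. The labels call the cells hippocampal neurons, but of 16 neuron markers only Syp and Eno2 were in the table, with means of 0.664 and 1.45 FPKM. Vim (mean 450 FPKM), Pax6 (10.8 FPKM) and the fibroblast markers Col1a1 (174 FPKM) and Col1a2 (249 FPKM) were expressed, and no endothelial marker was listed. The fibroblast marker Col3a1 averaged only 3.64 FPKM, and Dcn was not listed. Of the neural progenitor markers, to which Vim and Pax6 belong, Nes and Sox2 were not listed. The summed level of the fibroblast markers was between 395 and 468 FPKM in the 4 libraries, and its part in the results was not tested. The number of reads behind a value is unknown, and the column totals lay between 331892 and 353381 FPKM.

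PGC-1α is a transcriptional coactivator. It binds no DNA by itself and acts through partners such as the estrogen-related receptors, NRF1 and GABP, which drive the nuclear genes of oxidative phosphorylation, the citrate cycle and fatty acid oxidation. OGD is a culture model of ischemia, in which loss of oxygen stabilizes hypoxia-inducible factor (HIF) and loss of nutrients engages ATF4 and the integrated stress response, in which translation is slowed and Ddit3, Trib3 and Chac1 are induced. The cells here were collected a day after reoxygenation.

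Of the 1017 genes, 5.11% had PGC-1α effects past 1.5-fold in opposite directions without and with OGD. Changes of sign with smaller effects also occurred and are not part of this share. The 1017 genes were divided by whether each of the PGC-1α effects reached 1.5-fold. In 52 genes (0.633% of those tested) PGC-1α went past 1.5-fold in opposite directions without and with OGD, with 24 turning upward (0.292%) and 28 downward (0.341%). In 180 genes (2.19%) the pattern was one of saturation, in which PGC-1α and Ctrl+OGD were both past 1.5-fold from Ctrl in 1 direction while PGC-1α+OGD stayed within 1.5-fold of both. Of these, 69 had the higher (0.84%) and 111 the lower sign (1.35%). The PGC-1α effect reached 1.5-fold only without OGD in 215 other genes (2.62%) and only with OGD in 218 (2.65%). It did so in both, in 1 direction but unequally, in 17 (0.207%), and in neither in 335 (4.08%). The genes of the last class all had effects of opposite signs, each short of 1.5-fold, since 2 such effects of 1 sign cannot differ by 1.5-fold. Near the threshold, Itgav at -0.586 and Mreg at 0.586 were counted, whereas Shc1 and Ston1, both at -0.585 after rounding, were not. At the filter on low values, Cyp11a1 with a mean of 5.001 FPKM was tested and Acss2 with 4.994 FPKM was not.

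**Figure D1:**
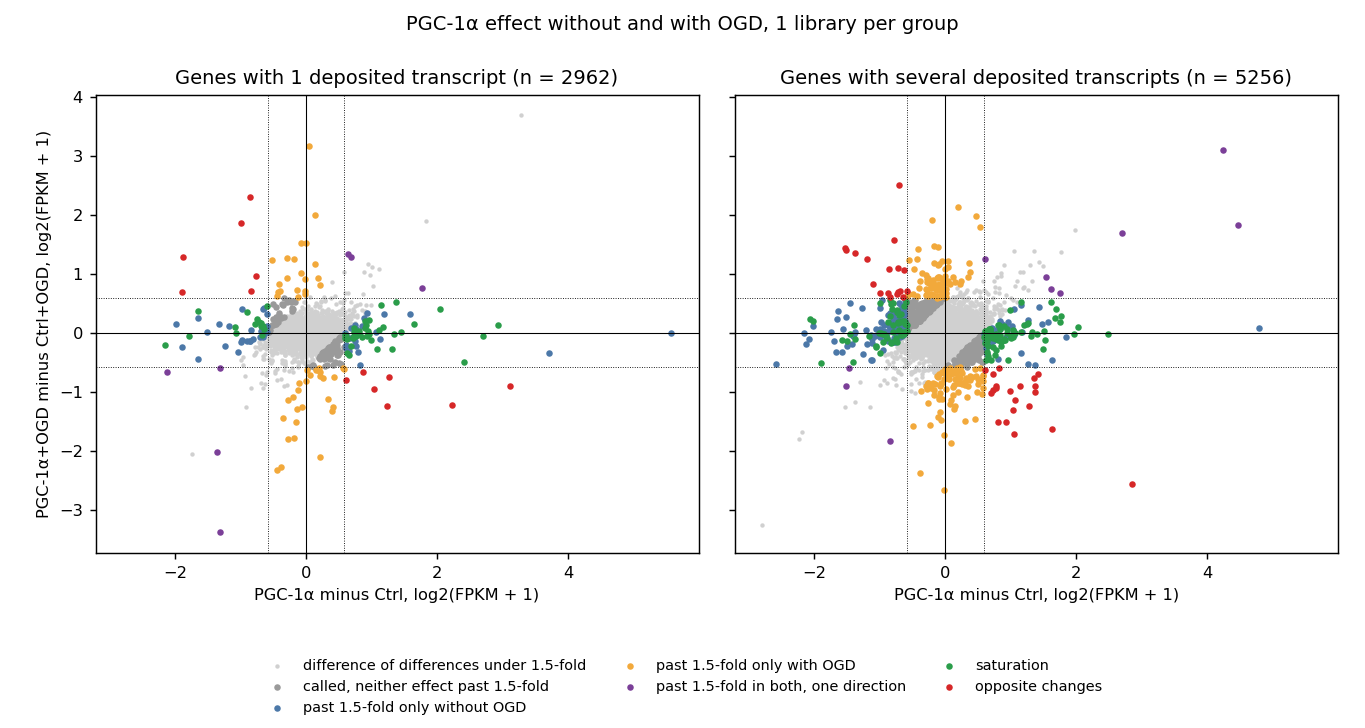
PGC-1α effect without OGD (x axis) and with OGD (y axis) on log2(FPKM + 1) for each tested gene, with 2962 genes of 1 deposited transcript on the left and 5256 of several on the right. Dotted lines mark 1.5-fold. Saturated genes (54 and 126) lie along the horizontal axis, and opposite changes (13 and 39) lie in the upper left and lower right corners.

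These counts differed with the number of deposited transcripts of a gene. Among 2962 genes with 1 deposited transcript, 260 (8.78%) were past 1.5-fold, 105 higher (3.54%) and 155 lower (5.23%). Among 5256 genes with several, 757 (14.4%) were, 401 higher (7.63%) and 356 lower (6.77%). The transcripts of a gene did not always move alike, as in Odr4. Its total was 20.9 FPKM in Ctrl and 7.38 in PGC-1α, and 6.34 and 17.7 FPKM in the respective cells after OGD, a difference of 2.74. Of its 2 transcripts, one was listed at 20.9, 7.38, 3.60 and 0.670 FPKM in the same order and the other at 0, 0, 2.74 and 17.1, so that by the higher transcript alone the difference was -0.0767. The share past 1.5-fold also decreased with level, from 17.6% of genes with a mean of 5 to 10 FPKM to 6.19% of those at 100 FPKM or more. The median difference of all tested genes was -0.005, but it shifted with level from 0.05 in the lowest range to -0.12 in the highest.

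A single library stood apart from the other three, which were within 1.5-fold of each other, in 327 of the 1017 genes (32.2%). It was Ctrl in 144 of them, high in 50 and low in 94. PGC-1α stood apart in 71, Ctrl+OGD in 59 and PGC-1α+OGD in 53. Among genes with 1 deposited transcript it was Ctrl in 41 of 260, low in 32 of them. Ctrl is the reference of the PGC-1α effect and of the OGD effect alike, so that a low or high Ctrl library gives the saturated pattern by construction, and the 1 library cannot be told apart from the untreated condition.

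**Figure D2:**
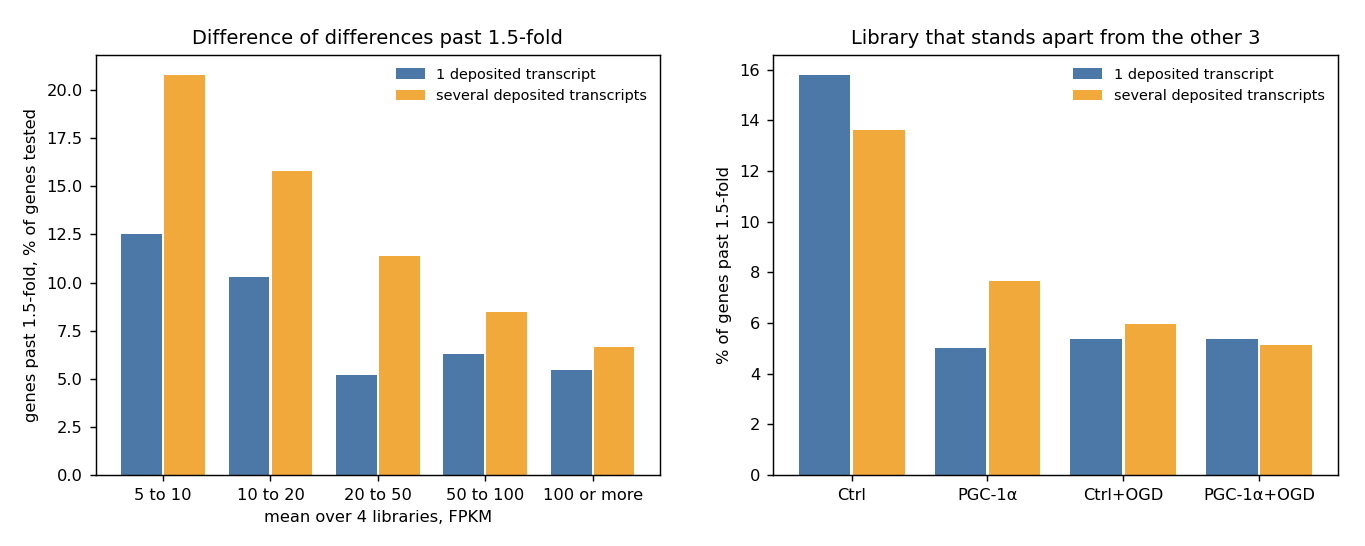
Left, percent of tested genes past 1.5-fold by mean level, for genes with 1 and with several deposited transcripts, and right, percent of the genes past 1.5-fold in which 1 library stood apart from the other 3. Over all genes the share decreased from 17.6% at 5 to 10 FPKM to 6.19% at 100 FPKM or more, and Ctrl was the library that stood apart most often.

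Ppargc1a, the gene of PGC-1α (chr5:51454250-51567726, minus strand, GRCm38), checks the labels. In bulk RNA, fewer cells with the transgene and less RNA per cell cannot be told apart. It was at 0.9001 FPKM in Ctrl and 35.1 with PGC-1α, against 0.103 and 8.41 FPKM after OGD. Both PGC-1α libraries were thus above both controls, and the level after OGD was lower in either kind of cell. The effect was 4.25 without OGD and 3.09 with OGD on the log2 scale, a difference of -1.15 that turned to 0.25 when 0.1 in place of 1 was added before the logarithm. One of its 2 deposited transcripts was at 9.03 FPKM in PGC-1α and listed at 0 in the other 3 libraries. Every other gene below was therefore measured at unequal Ppargc1a levels in the PGC-1α libraries. Where 4 levels of a gene stand in a row below, the first pair is Ctrl and PGC-1α and the second pair is the same cells after OGD.

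The genes of mitochondrial respiration showed the PGC-1α effect in a smaller form after OGD. Of 79 tested nuclear genes of oxidative phosphorylation, the difference of differences was below 0 in 74, against 50.7% of all tested genes. Their median PGC-1α effect was 0.45 without OGD and 0.16 with OGD, and the median difference was -0.28. In 65 of them the effect kept its sign and was smaller, which held for 33.4% of all tested genes, and in 9 it went from above to below 0 (23.6% of all). Ctrl was the lowest of the 4 libraries in 71 of the 79, and in 30.9% of all. OGD in control cells gave a median of 0.25, and PGC-1α+OGD lay a median of 0.48 above Ctrl, close to PGC-1α alone and short of the median of 0.73 for the sum of the single effects per gene. Only 2 of the 79 were past 1.5-fold higher and 6 lower, which is no larger a share than the 12.4% of all genes, so the list is a case of many small differences in 1 direction. With a linear trend in mean level, transcript length and GC content taken out, the median was -0.12. Cytosolic ribosomal proteins, which are also short and abundant, had a median difference of 0.00 over 82 tested genes (0.24 with the trend removed).

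The complexes resembled each other. The median difference was -0.26 for 36 tested genes of complex I, -0.26 for 4 of complex II, -0.30 for 10 of complex III with cytochrome c, -0.28 for 14 of complex IV and -0.32 for 15 of ATP synthase. Cox5a, a subunit of cytochrome c oxidase (chr9:57521274-57532426), was the gene furthest from 0. It was at 23.8 FPKM in Ctrl and 60.2 in PGC-1α, and after OGD at 80.0 in control and 66.0 in PGC-1α cells. Only Ctrl was low, and the PGC-1α effect of 1.31 without OGD was -0.27 with it, a difference of -1.58. Cox7a1, the heart and muscle form of another subunit of that enzyme, behaved differently, at 2.92, 24.5, 2.95 and 11.8 FPKM in the same order. Both controls were low, and the effect was present without OGD (2.70) and with it (1.70), with a difference of -1.004. Cox6a2, a muscle form as well, was at 91.9, 45.7, 71.8 and 64.1 FPKM and had the opposite sign, 0.83.

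Atp5o, a stalk subunit of ATP synthase, was at 70.8 FPKM in Ctrl and 134 with PGC-1α, against 126 and 139 FPKM after OGD, again with Ctrl alone low, and its difference was -0.77. It shares exons with Donson, and the summed level of both gave -0.74. Ndufs1, the largest subunit of complex I, was at 29.4, 57.9, 39.4 and 44.9 FPKM, highest with PGC-1α and no OGD, and its difference was -0.77. Its most abundant transcript gave -1.80 and the next had the opposite sign, 1.63. Ndufs3, of the same complex, had a difference of -0.65 (-0.505 with the trend removed). Ndufa12, an accessory subunit of complex I, was with Cox6a2 the only respiration gene past 1.5-fold with the higher sign, at 97.4, 124, 115 and 223 FPKM with a difference of 0.60 (0.58 and not past it with median ratio scaling). Its level was highest in PGC-1α+OGD. The 13 mitochondrially encoded subunits had a median PGC-1α effect of 0.38 without and 0.26 with OGD. None of them was past 1.5-fold, and their median difference of -0.13 was 0.00 with the trend removed.

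Cycs, the gene of cytochrome c, had Ctrl apart at 56.7 FPKM, with 107 FPKM in PGC-1α and 103 and 130 FPKM after OGD. Its difference of -0.57 was just short of 1.5-fold. It is a textbook NRF1 target, and the 250 bases before its RefSeq gene start (chr6:50566570-50566819, minus strand, GRCm38.p6) are shown because they hold that partner's core GCATGCGC, in capitals, starting 60 bases before the gene start.
Cycs: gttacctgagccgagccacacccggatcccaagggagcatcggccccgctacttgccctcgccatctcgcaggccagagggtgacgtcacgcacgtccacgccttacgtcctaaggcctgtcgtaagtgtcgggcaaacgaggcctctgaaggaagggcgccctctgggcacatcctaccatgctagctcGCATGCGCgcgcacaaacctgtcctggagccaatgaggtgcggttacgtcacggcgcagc
Searched on both strands, this core was in 9 of 66 promoters of the respiration genes that matched the RefSeq table (13.6%), and in 5.86% of all promoters of tested genes. The half-site of estrogen-related receptors, AAGGTCA, was in 6 of 66 (9.09%) and in 3.1% of all, and the core CCGGAAG of GABP in 18.2% and 18.3%. These letters describe the windows only and do not show a bound site.

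Citrate cycle and glycolysis genes also had smaller effects with OGD. In 24 tested genes of the citrate cycle and pyruvate entry the median effect was 0.47 without and 0.20 with OGD. The difference was below 0 in 21 (50.7% of all tested genes). The effect kept its sign and was smaller in 19 of the 24 (33.4% of all). None passed 1.5-fold. Idh3a, the catalytic subunit of isocitrate dehydrogenase, was at 33.9 FPKM in Ctrl and 82.5 in PGC-1α, and after OGD at 55.3 in control and 92.3 in PGC-1α cells. The PGC-1α libraries were above both controls, with effects of 1.26 and 0.73. The 18 tested glycolysis genes had a median effect of 0.51 without and 0.07 with OGD. Their median difference was -0.38, below 0 in 16 (50.7% of all tested genes). In 11 the effect kept its sign and was smaller (33.4% of all). The 3 past 1.5-fold, Ldha, Tpi1 and Pfkl, were all lower (6.22% of all tested genes) and saturated. Ldha, which makes lactate from pyruvate, was at 91.9, 149, 170 and 161 FPKM, so that only Ctrl was low, and its difference was -0.77. Among its 12 transcripts the most abundant was at 1.75, 93.8, 111 and 3.85 FPKM, which alone gave -9.64, and the next at 58.3, 5.15, 4.44 and 97.9 FPKM, so that the level of Ldha rests on their sum. Ldhb, the form that favors the reverse reaction, differed from it at 24.0, 69.7, 23.3 and 52.0 FPKM. Its effects of 1.497 and 1.12 were past 1.5-fold in both settings, and both controls were alike.

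For 74 tested mitochondrial ribosomal proteins the median effect was 0.20 without and -0.01 with OGD. It kept its sign and was smaller in 25 (33.4% of all tested genes) and went from above to below 0 in 31 (23.6% of all). Only 3 were past 1.5-fold, all lower, a smaller share than the 6.22% lower among all tested genes. One of the 3, Mrpl21, was at 22.3, 46.5, 68.2 and 26.9 FPKM, an opposite change of -2.34 in a gene with 2 deposited transcripts (-3.79 by the higher one). Among 28 genes of mitochondrial import and proteostasis 4 were lower and none higher. Of all tested genes 6.22% were lower, and 12.4% were past 1.5-fold in either direction. In Timm44, which tethers the import motor to the inner membrane, Ctrl+OGD stood apart, at 19.9 FPKM against 9.84 in Ctrl, 9.01 in PGC-1α and 10.52 in PGC-1α+OGD.

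Fatty acid oxidation was mixed. Of 21 tested genes 1 was higher and 2 lower, against 6.16% and 6.22% of all, and the median difference was -0.17. Acads, the short-chain acyl-CoA dehydrogenase, was at 11.2 FPKM in Ctrl and 19.997 with PGC-1α, against 12.1 and 12.1 FPKM after OGD, so that only PGC-1α without OGD was high. Acadvl, its very-long-chain counterpart, was at 15.5, 28.3, 15.8 and 18.3 FPKM with the same order, but by its higher transcript alone the difference was -0.02. Acsl1, which activates long-chain fatty acids, had the opposite sign (1.09) and was lowest in Ctrl+OGD, at 6.57 FPKM against 9.38 to 12.5 in the others. In the partners of PGC-1α and other regulators of mitochondrial biogenesis the sign was mostly, but not always, the other one. Over 18 tested regulators of mitochondrial biogenesis the median difference was 0.12, and the difference was above 0 in 13, against 49.3% of all tested genes. Only 1 of the 18 was past 1.5-fold, against 12.4% of all tested genes. It was Gabpa, the DNA-binding subunit of GABP, at 34.7, 32.3, 23.2 and 35.9 FPKM. Its difference was 0.71 (0.5848 by its higher transcript, just short of 1.5-fold). Esrra, the estrogen-related receptor that PGC-1α induces with its own targets, was at 4.73, 8.75, 5.13 and 7.30 FPKM. Its effects of 0.77 and 0.44 gave a difference of -0.33, the lowest of this list and of the same sign as in most respiration genes. In 11 tested mitochondrial antioxidants and uncoupling proteins none was past 1.5-fold. Sod2, the matrix superoxide dismutase, was at 22.2, 36.5, 24.4 and 30.2 FPKM, and its difference was -0.39.

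**Figure D3:**
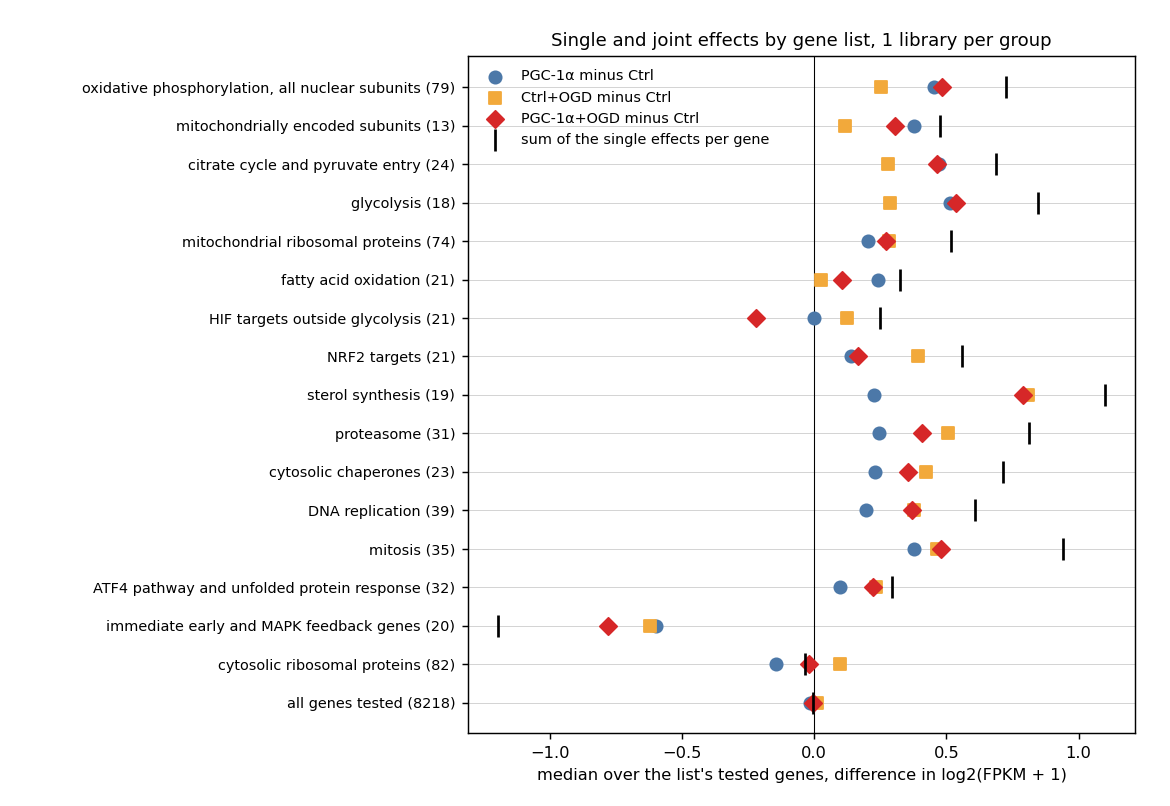
Median over the tested genes of each list (their number in parentheses) of the difference from Ctrl in log2(FPKM + 1) with PGC-1α, with OGD and with both, with a bar for the median of the summed single effects per gene. In oxidative phosphorylation the value with both is 0.48 and that of the summed effects 0.73, and in the immediate early genes these are -0.78 and -1.19.

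Several genes of the ATF4 and CHOP branch of the stress response were lower with PGC-1α without OGD and close to control with it. Of 32 tested genes of ATF4 and the unfolded protein response 4 were higher and 2 lower, against 6.16% and 6.22% of all tested genes, so that the lower count is at the share of all. Ddit3, Ppp1r15a and Chac1 were further from 0 than any respiration gene. Ddit3, which encodes the pro-apoptotic factor CHOP, was at 393 FPKM in Ctrl and 91.8 in PGC-1α, and after OGD at 228 in control and 212 in PGC-1α cells. The PGC-1α library was lowest and Ctrl highest. The 2 controls were not alike, since Ctrl+OGD minus Ctrl was -0.78, so the lower Ctrl+OGD also enters the difference. The PGC-1α effect was -2.09 without OGD and -0.11 with OGD, a difference of 1.98, and the more abundant of its 2 transcripts gave 2.21. Ppp1r15a, or GADD34, which recruits the phosphatase that restores translation, had the same order at 63.5, 13.8, 47.5 and 41.5 FPKM, with a difference of 1.94.

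Chac1, which degrades glutathione, was at 8.57 FPKM in Ctrl and 2.06 with PGC-1α, against 9.73 and 11.8 FPKM after OGD. PGC-1α alone was low here, and the gene has 1 annotated transcript, so that no division among transcripts enters its difference of 1.90. Trib3, a pseudokinase that CHOP induces and that feeds back on ATF4, was at 145, 60.8, 106 and 90.3 FPKM, and its difference was 1.02. Atf4 itself was at 314, 221, 367 and 348 FPKM with a difference of 0.43, short of 1.5-fold. Not all of its targets had this sign. Psat1, an enzyme of serine synthesis, was at 35.3, 74.9, 52.2 and 52.8 FPKM, highest with PGC-1α and no OGD, and its difference was -1.05. Manf, a secreted factor of the unfolded protein response, was highest in Ctrl+OGD at 259 FPKM and had a difference of -0.77 (-0.30 by its highest transcript). The median over the list was -0.17, and chaperones such as Creld2 and Sdf2l1, at -0.53 and -0.51, had the lower sign.

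The promoters of Chac1 (chr2:119350992-119351241, plus strand) and Ppp1r15a (chr7:45526269-45526518, minus strand) are shown as genes of this branch that shared the pattern, from 250 bases before the RefSeq gene start on GRCm38.p6. Capitals mark in Chac1 the C/EBP-ATF response element TGATGNAA, read here on the opposite strand and starting 193 bases before the gene start, and in Ppp1r15a the cAMP response element TGACGTCA, 12 bases before it.
Chac1: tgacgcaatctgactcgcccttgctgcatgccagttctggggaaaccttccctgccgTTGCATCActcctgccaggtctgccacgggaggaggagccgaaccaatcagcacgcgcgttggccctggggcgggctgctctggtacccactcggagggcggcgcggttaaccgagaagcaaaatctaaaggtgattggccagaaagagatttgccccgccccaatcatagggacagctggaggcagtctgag
Ppp1r15a: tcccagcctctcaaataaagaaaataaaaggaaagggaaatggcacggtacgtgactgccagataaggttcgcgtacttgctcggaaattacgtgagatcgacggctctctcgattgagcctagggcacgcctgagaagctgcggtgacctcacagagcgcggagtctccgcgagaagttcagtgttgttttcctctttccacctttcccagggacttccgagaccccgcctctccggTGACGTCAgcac
TGATGNAA was in 5 of 29 promoters of the ATF4 and unfolded protein response list that matched the RefSeq table (17.2%) and in 144 of 6583 promoters of tested genes (2.19%), on either strand. TGACGTCA was in 1 of 29 (3.45%), the one in Ppp1r15a, and in 3.22% of all, which is a similar share. The list was drawn up from known targets, so this share describes the list and not its change.

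Genes that p53 and stress share had the same order as Ddit3 in part. Among 16 tested p53 targets 4 were higher and 1 lower, against 6.16% and 6.22% of all tested genes. Gadd45a, a growth arrest gene that ATF4 also induces, was at 129 FPKM in Ctrl and 47.7 in PGC-1α, and after OGD at 83.3 in control and 72.6 in PGC-1α cells, a difference of 1.22. Gdf15, a stress cytokine, was at 18.5, 7.48, 18.1 and 15.6 FPKM, with PGC-1α low and a difference of 1.00 (0.38 by its higher transcript). Bbc3, the BH3-only protein PUMA, was at 7.89, 3.85, 4.33 and 5.01 FPKM, where Ctrl was highest, and its difference was 1.05. Mdm2, the ligase that degrades p53, was the gene with the lower sign (-0.96), at 2.98, 3.002, 12.7 and 6.08 FPKM, and was highest in Ctrl+OGD.

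**Figure D4:**
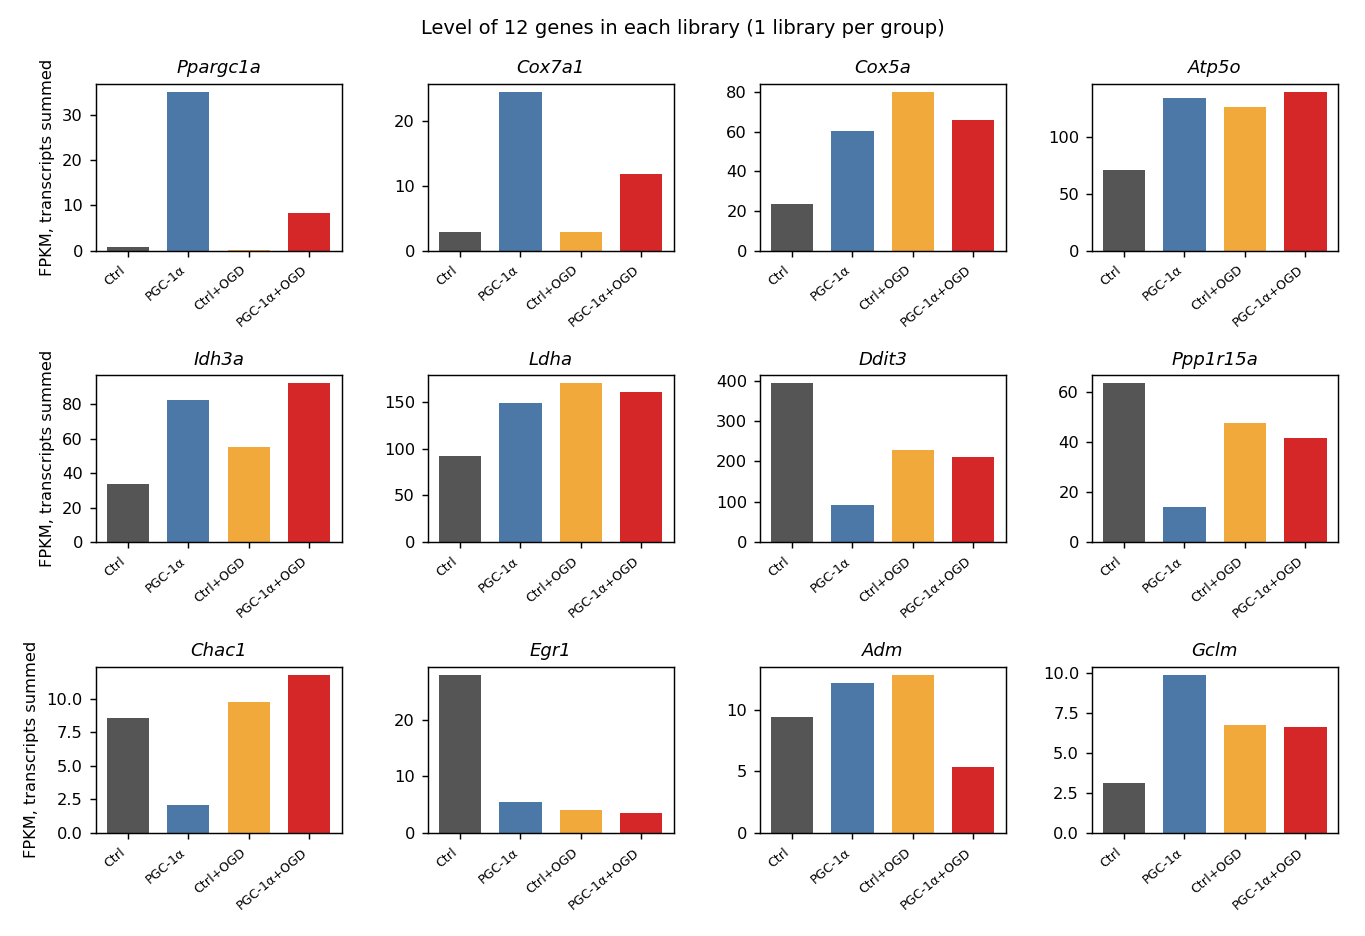
Level of 12 genes in FPKM, transcripts summed, in the single library of each group. Ctrl is low in Cox5a, Atp5o and Ldha, PGC-1α is low in Ddit3, Ppp1r15a and Chac1, and Adm is lowest in PGC-1α+OGD at 5.37 FPKM.

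HIF targets outside glycolysis had lower differences, with the low level mostly in PGC-1α+OGD. Of 21 tested genes 8 had a lower and none a higher difference, against 6.22% lower among all tested genes, and the median PGC-1α effect was 0.00 without and -0.22 with OGD. The effect went from above to below 0 in 10 of them (23.6% of all tested genes), and 17 had a difference below 0 (50.7% of all). Adm, the vasodilator peptide adrenomedullin, was at 9.38 FPKM in Ctrl and 12.1 with PGC-1α, against 12.8 and 5.37 FPKM after OGD. Only PGC-1α+OGD was low, and the difference was -1.46. Egln3, a prolyl hydroxylase that marks HIF for degradation and is induced by it, was at 33.5, 33.5, 42.0 and 23.5 FPKM, with effects of 0.00 and -0.81. Its relative Egln1, at 22.0, 27.1, 29.5 and 23.6 FPKM, had a difference of -0.60, which fell just short of 1.5-fold in some settings.

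Hmox1, which breaks down heme and is also an NRF2 target, was at 15.9, 23.4, 18.6 and 12.6 FPKM, a difference of -1.06. Bnip3, a mitophagy receptor, was at 73.7, 82.5, 78.3 and 53.2 FPKM (-0.71), and Ndrg1 was at 70.3, 57.5, 50.5 and 25.6 FPKM (-0.66). Both were lowest in PGC-1α+OGD. Pdk1, the kinase that inhibits pyruvate dehydrogenase, was at 6.79, 8.01, 7.81 and 5.69 FPKM (-0.60, or -0.40 with 5 added in place of 1). In contrast, Higd1a, a small inner membrane protein of the respiratory chain, was saturated at 20.7, 34.9, 34.5 and 32.9 FPKM (-0.79, or -0.51 by its highest transcript). Of the genes that were not past 1.5-fold, the carbonic anhydrase gene Car9 was at 38.9, 31.2, 32.0 and 17.2 FPKM and Ddit4, an inhibitor of mTORC1, had a difference of 0.48. The median of the list was between -0.60 and -0.34 under all settings tried.

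Egln3 is shown as a HIF target with 1 deposited transcript. The capitals in the 250 bases before its RefSeq gene start (chr12:54203875-54204124, minus strand, GRCm38.p6) mark the hypoxia response element core ACGTG, 229 bases before the start.
Egln3: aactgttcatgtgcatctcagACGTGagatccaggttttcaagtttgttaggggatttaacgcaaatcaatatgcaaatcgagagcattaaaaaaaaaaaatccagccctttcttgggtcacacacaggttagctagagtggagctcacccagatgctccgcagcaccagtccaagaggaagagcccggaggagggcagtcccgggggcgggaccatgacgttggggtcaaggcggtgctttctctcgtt
On either strand this core was in 11 of 16 promoters of the list that matched (68.8%) and in 26.9% of all promoters of tested genes. A run of 5 letters is common, and a match does not show a bound site.

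NRF2 targets, the genes of glutathione and NADPH supply, had 6 of 21 tested genes lower and none higher, against 6.22% lower and 6.16% higher of all. Gclm, which limits the rate of glutathione synthesis together with Gclc, was at 3.15 FPKM in Ctrl and 9.88 in PGC-1α, and after OGD at 6.76 in control and 6.59 in PGC-1α cells. Ctrl was low, and the difference was -1.42. Ftl1, the ferritin light chain, was at 214, 401, 444 and 470 FPKM, also with Ctrl low, and its difference was -0.82. Prdx1, a peroxiredoxin, was at 106, 137, 170 and 127 FPKM (-0.78, or -0.31 by its highest transcript) and Pgd of the pentose phosphate pathway at 24.95, 34.4, 46.9 and 39.7 FPKM (-0.69). The latter genes were highest in Ctrl+OGD.

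The sterol genes had the largest OGD effect of the lists in control cells, a median of 0.81, against 0.44 in PGC-1α cells. Of 19 tested 4 were lower and none higher, against 6.22% and 6.16% of all tested genes. Msmo1, which demethylates sterols, was at 11.2 FPKM in Ctrl and 12.9 with PGC-1α, against 29.4 and 17.0 FPKM after OGD, a difference of -0.95. The PGC-1α effect on Msmo1 was above 0 only without OGD. In the sum both OGD libraries were above both others, whereas its most abundant transcript was at 10.002, 11.3, 26.8 and 9.16 FPKM, lowest in PGC-1α+OGD, with a difference of -1.61.

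The proteasome and the cytosolic chaperones moved in small steps in 1 direction. The median difference was -0.35 in 31 tested proteasome genes and -0.34 in 23 chaperone genes. The difference was below 0 in 30 of the former and 22 of the latter, against 50.7% of all tested genes. In 25 and 15 of them the PGC-1α effect was above 0 without OGD and below 0 with it, which was the case in 23.6% of all tested genes. Ctrl was lowest in 28 of the 31 proteasome genes, against 30.9% of all tested genes. Of the 31, only 3 were past 1.5-fold, all lower, against 6.22% lower and 12.4% in either direction among all tested genes. No chaperone was past 1.5-fold. Psmd13, of the proteasome lid, was at 20.8 FPKM in Ctrl and 40.1 in PGC-1α, and after OGD at 40.6 in control and 37.0 in PGC-1α cells (-1.05), and Psmb5, the catalytic subunit that bortezomib inhibits, at 25.04, 43.2, 46.8 and 44.1 FPKM (-0.85). Both were saturated, with a low Ctrl.

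The difference was below 0 in 29 of 39 tested genes of DNA replication and in 30 of 35 of mitosis, against 50.7% of all. Past 1.5-fold, 1 was higher and 4 lower in DNA replication, and none was higher and 5 lower in mitosis. Both shares are near the 12.4% of all tested genes in either direction, whereas 6.22% of all tested genes were lower. Plk1, the kinase of mitotic entry, was at 16.6, 31.6, 44.9 and 41.7 FPKM, a saturated gene with a difference of -0.99. Rpa1, of the single-strand binding complex, was at 23.3, 29.4, 45.3 and 25.5 FPKM (-1.13, or -0.71 by its higher transcript) and stood out in Ctrl+OGD. The 1 higher gene, Fen1, a flap endonuclease, rested on a transcript at 20.3 FPKM in PGC-1α+OGD and near 0 in the other libraries, and its difference of 1.34 was -0.17 by the transcript with the highest mean.

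**Figure D5:**
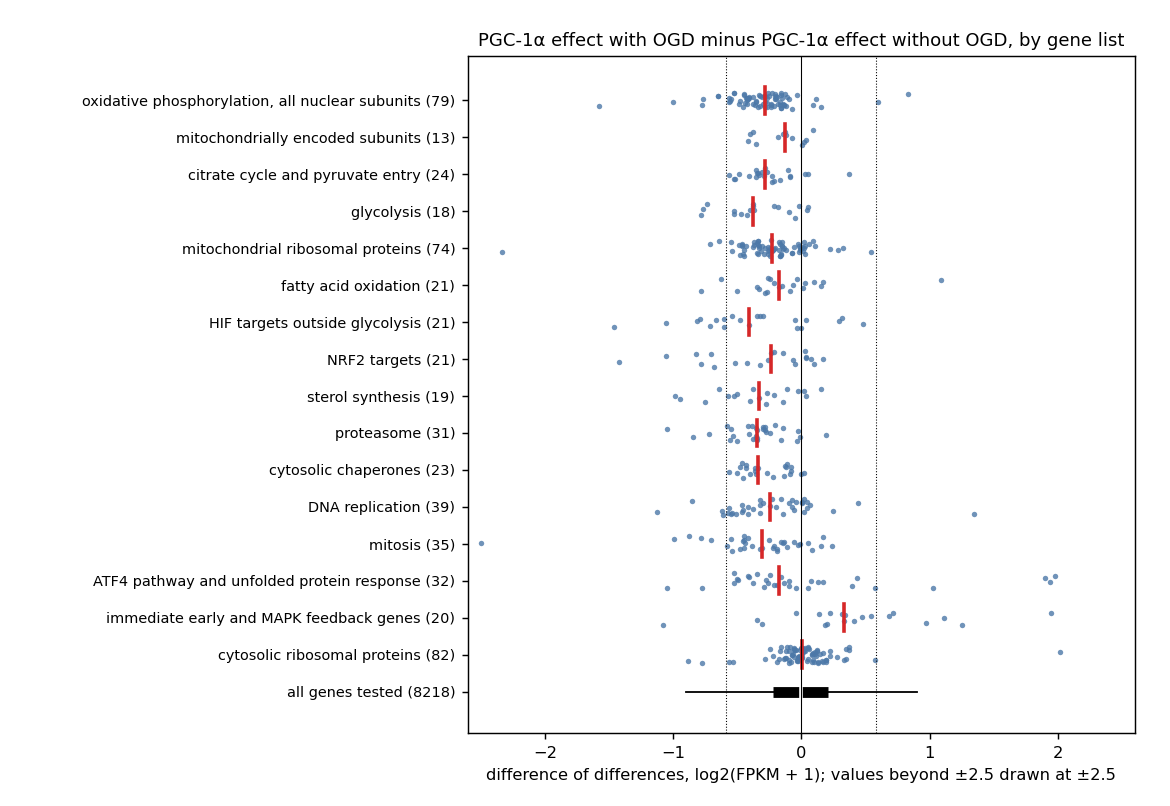
Difference of differences in log2(FPKM + 1) of each tested gene by list, with the list median as a red bar and 1.5-fold as dotted lines. For all 8218 genes the thick bar spans the middle 50% and the thin line the middle 95%, from -0.90 to 0.90. Values beyond 2.5 are drawn at the edge. Most proteasome and chaperone points lie below 0, and the ATF4 list has 4 points beyond the upper line although its median is -0.17.

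Immediate early genes and feedback inhibitors of MAPK signaling, which respond within minutes to growth factors and serum, had the opposite sign. Of 20 tested 6 were higher and 1 lower (6.16% and 6.22% of all tested genes), the difference was above 0 in 16 (49.3% of all tested genes), and Ctrl was the highest library in 17 (32.6% of all). The median effect of PGC-1α was -0.60 without and -0.09 with OGD, OGD in control cells gave -0.62, and PGC-1α+OGD lay -0.78 from Ctrl, short of the -1.19 of the summed effects. Egr1, a zinc finger factor of the early response, was at 27.9 FPKM in Ctrl and 5.49 with PGC-1α, against 4.14 and 3.45 FPKM after OGD. Ctrl alone was high, and the difference was 1.95. Dusp6, the phosphatase that switches off ERK, was at 39.8, 17.2, 15.6 and 15.1 FPKM (1.11), and Klf4 was at 14.9, 7.05, 7.47 and 7.43 FPKM (0.97). Both were saturated in the same manner.

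Myc was at 77.5, 33.0, 49.8 and 51.5 FPKM, with PGC-1α lowest and a difference of 1.25. Spry4, an inhibitor of receptor tyrosine kinase signaling, was at 16.7, 10.51, 6.22 and 6.53 FPKM (0.68), and Klf6 at 20.8, 12.6, 14.5 and 14.8 FPKM (0.71). With 5 added in place of 1 these were 0.52 and 0.58, short of 1.5-fold. Klf10, which TGF-β induces, went the other way at 15.6, 32.0, 26.3 and 24.7 FPKM (-1.08) and had Ctrl lowest. Of the list members below the filter on low values, Egr2 and Egr3 were at 1.12 and 3.75 FPKM in Ctrl and lower in the other 3 libraries. Not all such members had Ctrl highest, since Dusp1 and Ccn1 were lowest in Ctrl, at 3.29 and 3.06 FPKM. The 17 tested interferon genes had a median difference of 0.21, with 1 past 1.5-fold, against 12.4% of all tested genes. The 25 tested genes of extracellular matrix and integrins had a median of -0.01. Of 30 neuronal, synaptic and neurotrophic genes only 5 passed the filter. The 1 past 1.5-fold (12.4% of all tested genes) was Bdnf, a neurotrophin, at 0.76. With 5 in place of 1 added before the logarithm it was 0.47. A share of 5 genes says little.

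The largest single values came from genes whose identity or estimate is uncertain. Gm45717, a gene model on chromosome 7 that shares exons with Ifitm2, was at 0.515 FPKM in Ctrl and 71.1 in PGC-1α and listed at 0 in both OGD libraries. Summed with Ifitm2, the levels were 156, 166, 156 and 138 FPKM, a difference of -0.26. Zbed6 was at 0.728, 21.6, 0.814 and 0.420 FPKM and its overlapping neighbor Gm38394 at 23.8, 5.65, 9.66 and 16.1 FPKM, with differences of -4.06 and 2.58, and with Zc3h11a, whose exons they share, the sum gave -0.19. The model Gm20390 had -3.45 alone and -0.76 with Nme1 and Nme2, and Gm45837 had -2.91 alone and -0.23 with Arap1 and Pde2a. Of 213 genes with 1 deposited transcript and shared exons 32 were past 1.5-fold, against 8.29% of 2749 without shared exons.

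Without shared exons, Atp11b, a phospholipid flippase (chr3:35754106-35856276), was at 1.03 FPKM in Ctrl and 16.6 in PGC-1α, and after OGD at 18.6 in control and 9.46 in PGC-1α cells. Its effects of 3.12 and -0.90 had opposite signs, a difference of -4.02. Tapt1 was at 10.6, 2.12, 3.38 and 9.72 FPKM (3.18), and Abcd3, a peroxisomal transporter of fatty acids, at 11.8, 6.05, 3.61 and 21.7 FPKM (3.17). These had Ctrl and PGC-1α+OGD above the other libraries. Rab2b, a GTPase of the Golgi, also had Ctrl and PGC-1α+OGD highest, at 11.9, 5.45, 1.90 and 9.53 FPKM (2.86). Each of these genes has 1 deposited transcript but from 6 to 11 annotated ones, so that reads of transcripts left out of the table cannot be followed. The share past 1.5-fold among the 572 genes with a single annotated transcript was 9.09%.

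Large values in other genes with 1 deposited transcript had varied orders. Necap2, of clathrin-mediated endocytosis, was at 0.347, 9.25, 11.6 and 12.8 FPKM (-2.80), and Xylb, a xylulokinase, was listed at 0 in Ctrl with 5.47, 7.48 and 7.16 FPKM in the others. Ctrl was apart in both, which were saturated. Pcmtd1 was high in Ctrl only, at 15.9, 4.39, 3.57 and 4.87 FPKM (2.01). Trappc11, of vesicle tethering, was low in Ctrl+OGD only, at 8.78, 9.71, 2.09 and 11.3 FPKM (1.86), and Gpatch8 in PGC-1α only, at 18.6, 3.95, 14.4 and 16.0 FPKM (2.13). B9d1, of the ciliary transition zone, was low in PGC-1α+OGD, at 9.68, 11.3, 15.4 and 2.83 FPKM (-2.31). Tuba1a, an α-tubulin whose near-identical paralogs may share its reads, was at 50.8, 123, 134 and 79.6 FPKM (-2.01).

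Among genes with several deposited transcripts, Prrt2, a presynaptic protein, was at 0.812 FPKM in Ctrl and 12.1 with PGC-1α, against 12.4 and 1.26 FPKM after OGD, so that the single exposures were high and the joint one was not (-5.42). Cdc26, a subunit of the anaphase-promoting complex, was at 0.758, 47.5, 0.782 and 0.879 FPKM, and its high value was that of 1 transcript in 1 library (-4.71). Setd5, a chromatin factor, was at 25.01, 8.05, 7.71 and 22.0 FPKM (2.93), but in Ctrl the main transcript was one at 19.5 FPKM and in PGC-1α+OGD another at 18.2 FPKM.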

How the data were processed

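Poly(A) RNA of HT-22 cells was sequenced from 4 libraries, 1 per group, taken from the sample labels. The submitters' processing notes name HISAT2 2.1.0 and build GRCm38. The quantifier, the annotation and the filter on transcripts are not given in the sources used here. The authors deposited 1 table of 25889 transcripts, whose unit it does not name. The deposited values were treated as FPKM because none is below 0 and the columns add up to different totals far below those of TPM. Every column was used.

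Transcripts were matched to GENCODE M21 by identifier without version (25822 matched, 67 not) and summed per gene symbol. Genes averaging 5 FPKM or more were compared on log2(FPKM + 1), with no further scaling and no test. A gene was counted at 1.5-fold. A library stood apart when it differed by 1.5-fold or more from each of the others, which lay within 1.5-fold of each other. Antisense overlap was not examined, and reads of paralogs cannot be separated.

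The genes, the 28 lists and the comparison were chosen with earlier results of these data known, and the lists were written from general knowledge. Named were Ppargc1a, the 10 highest and 10 lowest genes with 1 deposited transcript, the 5 highest and 5 lowest with several, the 5 opposite and 5 saturated genes in each direction, the 3 members of each list furthest from 0, and genes sharing their exons. Not all are printed, some genes are not reported here, and other list members were added after their values were seen. Alternatives were pseudocounts of 0.1 and 5, means of 1 and 10 or no filter, 3 scalings, the highest transcript, 1 deposited transcript only, and 2-fold. Removal of a linear trend in mean level, length and GC content, and 1 transcript without shared exons, were added after seeing the data. Scripts ran under Python 3.11.15 with pandas 2.3.3, numpy 2.4.6 and, for plots, matplotlib 3.10.9, and were tested on simulated data. Promoters are those of RefSeq on GRCm38.p6.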

Additional observations from a re-analysis of the deposited data

Results flagged for a closer look

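In these genes the PGC-1α effect was past 1.5-fold in opposite directions without and with OGD. The difference was not tested, since each group had 1 library. Among genes with 1 deposited transcript, the difference of differences in log2(FPKM + 1) was -4.02 in Atp11b, -3.45 in Gm20390, -2.48 in Rnf8, -2.01 in Tuba1a and -2.0 in Ube2t, and it was 3.18 in Tapt1, 3.17 in Abcd3, 2.86 in Rab2b, 2.58 in Gm38394 and 1.73 in Tlr4. Among genes with several deposited transcripts, it was -5.42 in Prrt2, -3.27 in Borcs8, -2.76 in Ctdsp2 and -2.34 in Mrpl21, and it was 3.21 in Scamp4, 2.97 in Sass6, 2.93 in Setd5, 2.74 in Odr4 and 2.43 in Ifrd2. With the genes that share their exons summed in, the difference was -0.76 for Gm20390, -0.19 for Gm38394, -4.65 for Prrt2, -3.13 for Borcs8 and 2.21 for Scamp4. So summed, the effects without and with OGD were 0.15 and -0.61 for Gm20390, 0.44 and 0.25 for Gm38394, and -0.07 and 2.14 for Scamp4. In these they were no longer past 1.5-fold in opposite directions. In Prrt2 (1.77 and -2.89) and Borcs8 (1.55 and -1.57) they still were.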

How the results depend on the processing

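No paired analysis was possible because each group had 1 library. Without replicates no error accompanies a value, and the depth is unknown. The counts were 506 genes higher, 511 lower, 52 opposite and 180 saturated, and the medians were -0.28 for oxidative phosphorylation, -0.28 for the citrate cycle and -0.38 for glycolysis. With a pseudocount of 5 the counts were 297, 327, 31 and 106. With a mean of at least 1 FPKM they were 815 higher, 772 lower and 100 opposite, with a mean of at least 10 FPKM 300 higher and 33 opposite, and with no filter 947, 882, 113 and 307. By the highest transcript 775 were lower and 147 opposite. With 1 deposited transcript only they were 105, 155, 13 and 54, and with 1 transcript and no shared exons 97, 131, 8 and 46. Fewer genes enter both settings. Their glycolysis median was -0.24, over at most 4 of the 18 tested glycolysis genes. At 2-fold the counts were 166, 172, 15 and 48. With the trend removed the medians were -0.12 for oxidative phosphorylation and -0.25 for glycolysis. Among genes past 1.5-fold and list medians of at least 0.1, the sign turned in Ppargc1a (0.25, pseudocount of 0.1), in the neuronal list (-0.10, mean of at least 10 FPKM), and by the highest transcript in Odr4 (-0.0767), Fen1 (-0.17) and Lamc1 (-0.14). Among smaller values it turned by the highest transcript in Mpc1 (from -0.56 to 0.33) and the p53 list (from 0.06 to -0.04), with the trend removed in the mitochondrially encoded subunits (0.0034) and the antioxidants (0.0102), with median ratio scaling in the cytosolic ribosomal proteins (-0.0181), and with upper quartile scaling or equal totals in the extracellular matrix list (0.0334 at most). The p53 list also had -0.04 with 1 deposited transcript only. For these the cause was not tested. With a pseudocount of 5 the size of the difference shrank by more than 1.5 times in low genes such as Atp11b (-2.55), Tapt1 (1.94), Rab2b (1.77), Necap2 (-1.31), Xylb (-1.10), Trappc11 (1.10), Chac1 (1.13) and Gclm (-0.89), all still past 1.5-fold. The 3 scalings moved the median of all genes by less than 0.1 and left the share of higher calls between 46% and 57.7%, against 49.8%. Of the other values of named genes under these settings, 1402 kept their side of 1.5-fold, 35 in 21 genes no longer passed it and 13 in 7 genes newly passed it.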

Other observations

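Osgin1, an NRF2 target with a mean below 5 FPKM, was at 9.74 FPKM in Ctrl and 4.02 in PGC-1α, and at 1.28 and 3.31 FPKM in these cells after OGD, a difference of differences of 2.02 that the filter on low values left out. Mrps34, of the small mitochondrial ribosomal subunit, was at 0.14 FPKM in both controls, 10.4 in PGC-1α and 5.89 in PGC-1α+OGD, with effects of 3.32 and 2.59. Slc25a14, the uncoupling protein UCP5, was listed at 0 in 3 libraries and at 2.40 FPKM in PGC-1α+OGD. Usp18, an interferon-induced protease, was at 1.53 FPKM in Ctrl and between 0.34 and 0.43 FPKM in the other libraries.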
